A study of Mus musculus with 8 samples.

Results

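The semaphorins, plexins and neuropilins are the ligands and receptors of one guidance system. They were taken as every row of the count table whose symbol begins with Sema3 to Sema7 or with Plxna, Plxnb, Plxnc or Plxnd, or is Nrp1 or Nrp2, with at least 1 count in the series. This gave 31 genes of 16524 with a count, of which 20 encode ligands and 11 encode receptors. All 31 also passed the filter on low counts, which left 12699 genes to test. The genes were measured by polyA RNA sequencing of microdissected cortices of mouse embryos at E18.5, from a constitutive Nuak1 KO line kept on a C57Bl/6JRj background. 4 KO embryos, which lack Nuak1 in every cell and not only in neurons, were compared with 4 WT embryos to ask which transcripts differ when this kinase is absent. The study collected this stage as the last one at which KO animals, which die at birth, can be obtained. Each sample is a separate embryo. Of the KO embryos 2 were male and of the WT embryos 1, all from 3 litters by their labels, but the columns of the table carry only the genotype and a running number, so libraries were not assigned to a litter or a sex here, and the part of sex in the values, including those of the X-linked Plxna3 and Plxnb3, was not tested.

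Semaphorins are named by class. Those of class 3 are secreted, those of classes 4 to 6 span the membrane and Sema7a is held by a lipid anchor. Most class 3 ligands bind a neuropilin, which has only a short cytoplasmic tail and signals through a class A plexin beside it, whereas the membrane-bound ligands bind plexins directly. Plexins carry a domain that switches off small GTPases of the Rap family, and through it and other partners they remodel actin and microtubules in growth cones. In the developing cortex this system is known for steering axons of projection neurons across the midline and toward subcortical targets, for orienting apical dendrites, for sorting migrating interneurons and for patterning blood vessels.

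Libraries held between 9643711 and 27014858 counts, and libraries of a genotype differed from each other by more than sampling noise, with a chi-square per degree of freedom of at least 5.36. Nuak1 itself had between 11.1 and 20.5 normalized counts in KO and between 877 and 1445 in WT, so every column followed its label. Levels are given as normalized counts, that is, TMM-scaled counts at the average library size. KO library R1 stood apart in markers of meningeal fibroblasts, the cells of the membranes around the brain. The 12 markers summed to 10749 normalized counts in it, to between 547 and 723 in the other KO libraries and to between 421 and 579 in WT libraries. The same library was highest in markers of vessels, with 8761 normalized counts summed over 12 endothelial markers against at most 6966 elsewhere, and 3448 over 6 mural markers against at most 2301. Markers of excitatory cortical neurons were high in every library (7 genes, between 29424 and 36067 normalized counts in sum). Those of choroid plexus were near 0, with at most 27.0 outside KO library R1 and 91.0 in it. Every fit was also run without KO library R1.

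Among the 31 genes, Nrp1, the neuropilin that binds Sema3a, was the only one past an adjusted p of 0.05, and it fell in KO. Of all genes tested 0.0709% passed, 0.0394% lower and 0.0315% higher. 7 genes had an unadjusted p under 0.05 from edgeR's quasi-likelihood test, 6 of them lower in KO (Nrp1, Nrp2, Sema3c, Sema4d, Sema4f and Sema6d) and 1 higher (Sema3a). This is 22.6% of the members, against 7.69% of all genes tested. The lower ones are 19.4% of the members, against 3.18% of all genes tested, and the single higher one 3.23%, against 4.51%. These genes were grouped with earlier results of the same libraries known, so the shares describe the family and are not independent evidence. Without KO library R1, 6 members had an unadjusted p under 0.05, 5 lower and 1 higher, beside 5.63% of all genes in that fit.

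**Figure D1:**
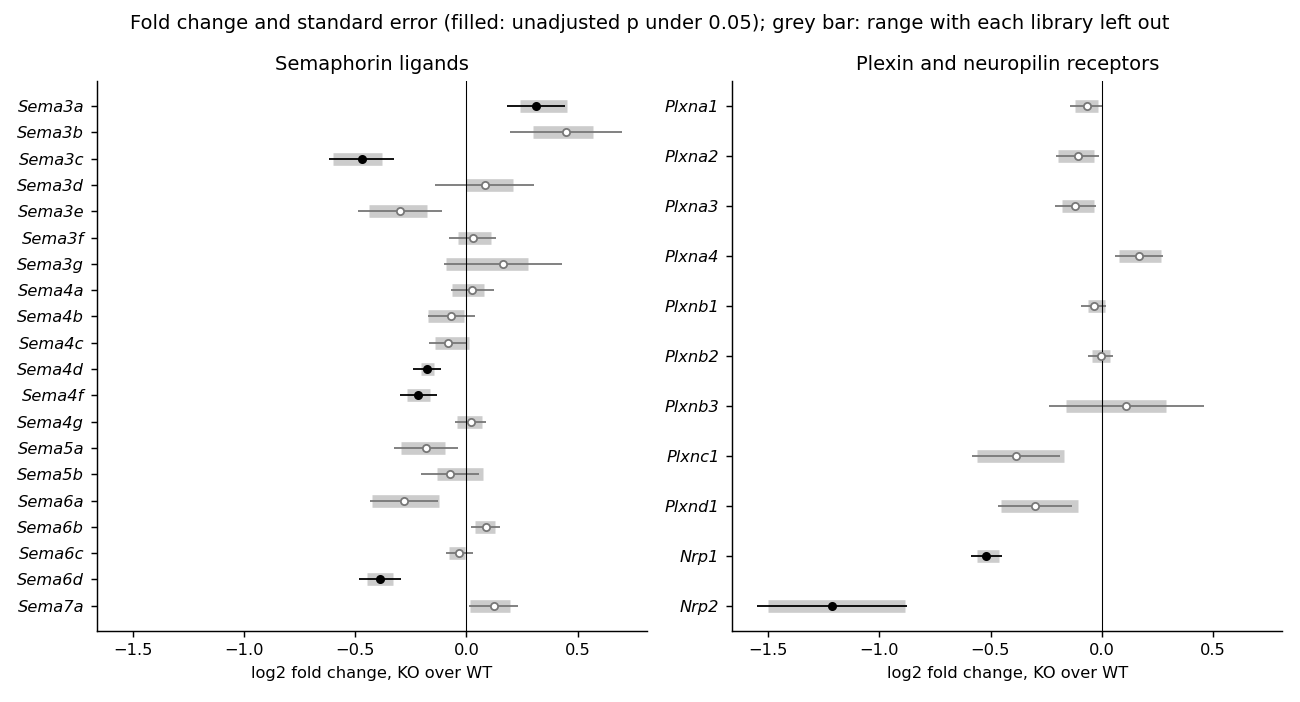
Log2 fold change of KO over WT (horizontal axis) for the 20 ligands and 11 receptors, with points and thin bars for the estimate and its standard error and grey bars for the range when each library was left out in turn. Filled points mark an unadjusted p under 0.05. Nrp1 and Nrp2 lie farthest below 0 among the receptors, at -0.52 and -1.21, while the class A and class B plexins lie between -0.12 and 0.17.

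The stretches before the start sites of Nrp1, Nrp2 and Sema6d are given here, since these are the members past the p threshold with the lowest p, and for each of them the window lies before the gene in both annotations used. They come from RefSeq on GRCm38.p6, run 5′ to 3′ on the plus strand and were found letter for letter once each in NCBIM37, the assembly behind mm9. The Nrp1 stretch lies at chr8:130882723-130882972, Nrp2 at chr1:62749641-62749858 and Sema6d at chr2:123915455-123915704 of NCBIM37. Capitals mark GGGCGG, the GC box, or its reverse complement CCGCCC, where neighbouring matches may share a base.
Nrp1: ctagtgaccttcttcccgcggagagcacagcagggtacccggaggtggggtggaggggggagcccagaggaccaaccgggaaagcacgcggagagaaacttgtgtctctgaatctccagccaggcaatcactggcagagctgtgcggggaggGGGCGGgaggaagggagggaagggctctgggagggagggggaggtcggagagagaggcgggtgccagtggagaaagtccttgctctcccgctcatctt
Nrp2: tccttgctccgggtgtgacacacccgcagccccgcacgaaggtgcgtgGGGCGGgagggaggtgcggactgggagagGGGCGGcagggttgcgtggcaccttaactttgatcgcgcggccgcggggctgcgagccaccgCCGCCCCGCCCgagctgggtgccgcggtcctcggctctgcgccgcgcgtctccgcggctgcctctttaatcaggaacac
Sema6d: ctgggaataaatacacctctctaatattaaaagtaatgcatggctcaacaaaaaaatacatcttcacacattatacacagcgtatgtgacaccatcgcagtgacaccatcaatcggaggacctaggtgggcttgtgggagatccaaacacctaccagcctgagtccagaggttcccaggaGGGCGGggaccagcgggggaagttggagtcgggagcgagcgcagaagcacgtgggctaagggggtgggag
The Nrp2 stretch of 218 bases held 28 CpG dinucleotides and 4 GC boxes, and the Nrp1 stretch of 250 bases held 11 and 1. The Sema6d stretch of 250 bases held 9 CpG dinucleotides and 1 GC box. Over 32851 such windows of 250 bases the median was 6 CpG dinucleotides, and 32.7% held a GC box. In windows of 300 bases, members that did not pass the p threshold, such as Plxna2, Plxna3, Plxnb1 and Sema4c, held a GC box as well. Another Sema6d window, at chr2:124653331-124653630 of GRCm38.p6, is not printed. It held 6 CpG dinucleotides and no GC box. These matches describe the letters and say nothing of which factors bind. The table of windows matched 26 of the 31 members.

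Levels can be compared between genes per kilobase of exon. In WT cortex the member with the highest level was Plxna3, a class A plexin that transmits class 3 signals, at 1078 ± 103 normalized counts per kilobase (SD, n = 4). Nrp1 came second at 958 ± 74.3, ahead of the class B plexin Plxnb2 at 874 ± 64.2 (SD, n = 4 each). These neighbours differed by less than the sum of their SDs. The highest ligand was the lipid-anchored Sema7a, at 711 ± 121 normalized counts per kilobase (SD, n = 4), followed by the membrane ligands Sema4g at 618 ± 30.0, Sema4c at 570 ± 76.4 and Sema6c at 543 ± 42.6 (SD, n = 4 each). Of the secreted ligands, Sema3f (358 ± 45.2) and Sema3c (340 ± 47.0) stood well above Sema3a, whose mean was 61.1 normalized counts per kilobase (SD, n = 4 each).

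The lowest members were Plxnb3, at 2.86 normalized counts per kilobase in WT, Sema3d at 4.67, Sema3b at 5.21 and Sema3g at 5.92. Their totals over the 8 libraries were between 153 and 262 counts, so small changes in them were not detectable at this depth. In KO Nrp1 moved from rank 2 to rank 4 of the 31 members, at 669 ± 52.1 normalized counts per kilobase (SD, n = 4). Nrp2 moved from rank 19 to rank 25, at 44.6 ± 6.48 (SD, n = 4), and Sema3a from rank 25 to rank 22.

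**Figure D2:**
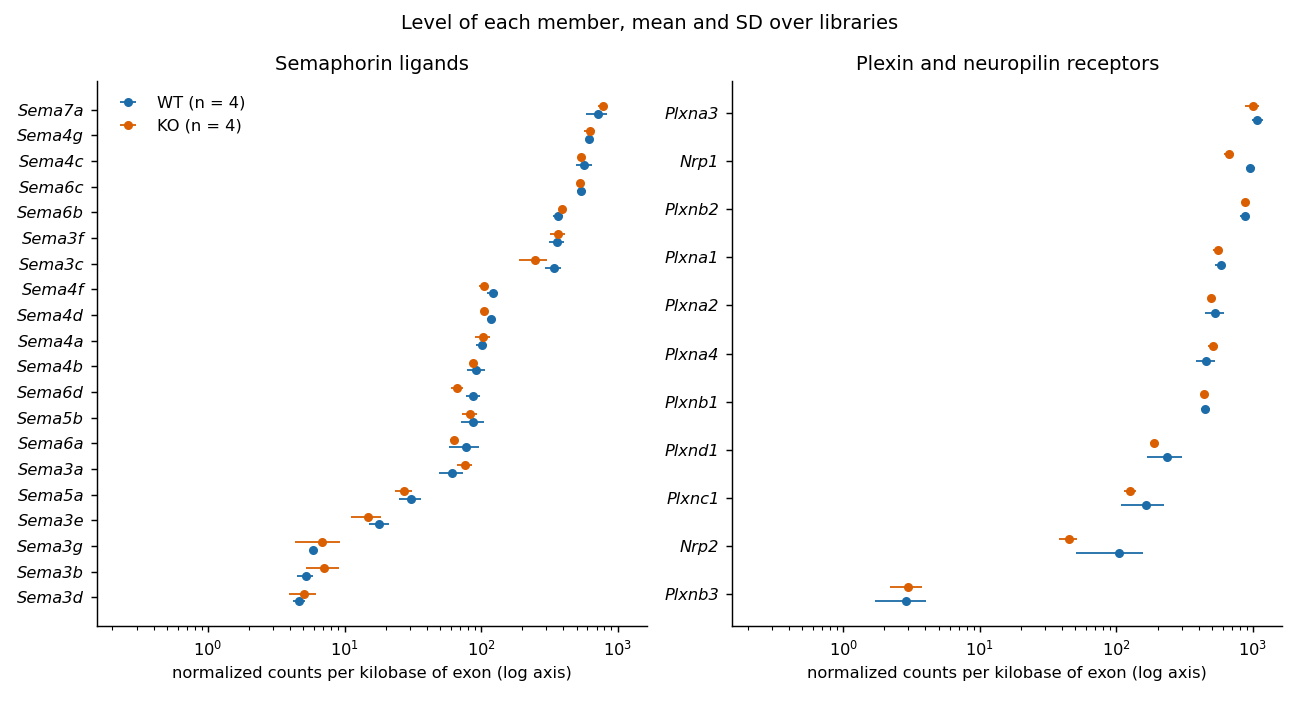
Mean level of each member in WT and KO (blue and orange points) in normalized counts per kilobase of exon on a log axis, with bars for the SD over 4 libraries. Nrp1 and Nrp2 are the receptors whose points separate most, while the WT bar of Nrp2 is far wider than its KO bar.

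Nrp1, on chromosome 8 of NCBIM37 from 130882973 to 131029362, had 4382, 3652, 3862 and 3912 normalized counts in KO libraries R1 to R4. In WT libraries R1 to R4 it had 5399, 6315, 5441 and 5479 normalized counts. Every KO library lay below every WT library. Of all genes tested 4.49% did not overlap between genotypes, 1.85% lower and 2.64% higher in KO, beside 3 of the 31 members, all lower (9.68%). The log2 fold change was -0.52 (standard error 0.07), a change of -30.2%, and its adjusted p was 0.0314 from edgeR, adjusted over all genes by Benjamini-Hochberg. Its rank by p was 6 of 12699. The estimate stayed between -0.56 and -0.46 when each library was left out, but the adjusted p from edgeR rose past 0.05 without KO library R2, R3 or R4 or WT library R1, R2 or R3, to at most 0.161. It was 0.0338 without KO library R1, and DESeq2's Wald test on all libraries gave an adjusted p of 6.47e-08.

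Nrp2, the neuropilin that binds Sema3f and Sema3c, lies on chromosome 1 of NCBIM37 from 62749859 to 62865269. It had 511, 424, 381 and 380.4 normalized counts in KO libraries R1 to R4, and 889, 360.2, 1116 and 1591 in WT libraries R1 to R4. The KO libraries were close together and 3 of the WT libraries were above all of them, whereas WT library R2 was below all of them. The log2 fold change was -1.21 (standard error 0.34), with an adjusted p of 0.44 from edgeR. Without WT library R2 the log2 fold change was -1.50 and the adjusted p 0.0297 from edgeR, and without WT library R4 the log2 fold change was -0.89.

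The sum of both neuropilins per kilobase was between 663 and 796 in KO libraries and between 1007 and 1107 in WT libraries, and WT library R2, the lowest in Nrp2, was the highest in Nrp1. Nrp1 made up 90.2 ± 4.94% of this sum in WT libraries and 93.8 ± 0.58% in KO libraries (SD, n = 4 each). The difference of 3.58 percentage points did not hold up against the spread between libraries (2-sided exact permutation test, p = 0.171, where 4 against 4 libraries allow 0.0286 at the smallest). It ranged from 1.76 points without WT library R4 to 5.72 points without WT library R2.

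**Figure D3:**
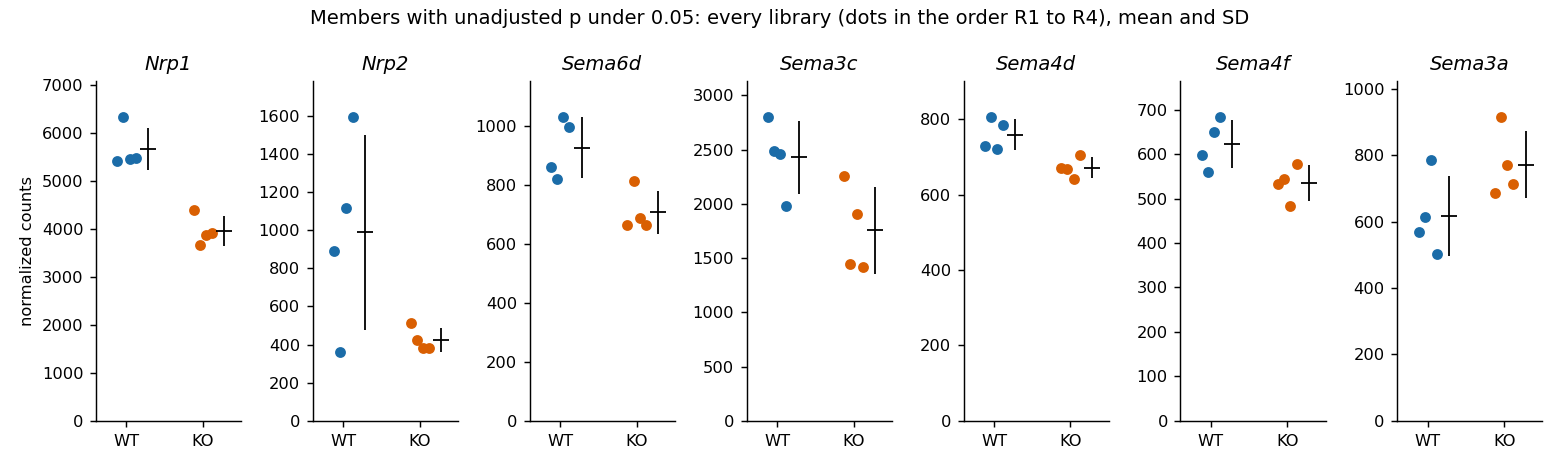
Normalized counts (vertical axes, each from 0) of the 7 members with an unadjusted p under 0.05 in every WT and KO library, with a black mark and bar for the mean and SD. Nrp1, Sema6d and Sema4d do not overlap between genotypes, and in Nrp2 WT library R2, at 360.2, lies below every KO library.

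Among the secreted class 3 ligands, Sema3c and Sema3a had opposite differences. Sema3c, a ligand of both neuropilins that is known as an attractant for callosal axons, lies on chromosome 5 of NCBIM37 from 17080099 to 17236086 and had 2259, 1446, 1903 and 1422 normalized counts in KO libraries R1 to R4 and 2796, 2483, 2457 and 1983 in WT libraries R1 to R4. Only KO library R1 overlapped with the WT libraries, above the lowest of them. The log2 fold change was -0.47 (standard error 0.15), with an adjusted p of 0.522 from edgeR. Without KO library R1, which was high in meningeal markers, it was -0.60. The part of the meningeal signal in this value was not tested.

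Sema3a, the ligand that repels cortical axons and attracts their apical dendrites, lies on chromosome 5 from 13125593 to 13602565 and had 687, 914, 769.8 and 714 normalized counts in KO libraries R1 to R4 and 568, 613, 786 and 503 in WT libraries R1 to R4. WT library R3 lay among the KO libraries and the other WT libraries below them. The log2 fold change was 0.31 (standard error 0.13), with an adjusted p of 0.631 from edgeR. In 5 of the 8 fits that left out a library, namely those without KO library R2 or R3 or WT library R1, R2 or R4, its unadjusted p was above 0.05. Beside each other, the receptor Nrp1 was lower and its ligand Sema3a higher in KO, and only the first passed the adjusted threshold.

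Sema3f, which acts through Nrp2, had between 1071 and 1441 normalized counts in KO libraries and between 1052 and 1436 in WT libraries, and its log2 fold change was 0.03 (standard error 0.11). Sema3e, which binds Plxnd1 without a neuropilin, had 112 ± 27.4 and 137 ± 23.1 (SD, n = 4 each), and its log2 fold change was -0.30 (standard error 0.19). Neither difference passed the threshold over all libraries, but Sema3e passed an unadjusted p of 0.05 without KO library R2 (log2 fold change -0.44) and without WT library R2 (-0.42), and had -0.18 without KO library R3. The other secreted ligands, Sema3b, Sema3d and Sema3g, were scarce, and their highest or nearly highest value lay in KO library R1. For Sema3g it was 47.4 normalized counts, while the other KO libraries reached 27.4 and the WT mean was 26.9. Sema3b had 41.0 there and at most 32.4 elsewhere. Without KO library R1 the log2 fold change of Sema3b went from 0.45 to 0.30, that of Sema3g from 0.16 to -0.09 and that of Sema3d from 0.08 to -0.0011. This is the library with the high meningeal markers, and their part in these values was not tested.

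The membrane-bound ligand with the lowest p was Sema6d, a class 6 ligand of Plxna1, on chromosome 2 of NCBIM37 from 123915705 to 124493506. Its normalized counts were 664, 815, 688 and 665 in KO libraries R1 to R4 and 861, 819, 1029 and 998 in WT libraries R1 to R4. The genotypes did not overlap, though KO library R2 came within a few counts of WT library R2. The log2 fold change was -0.39 (standard error 0.09), with an adjusted p of 0.345 from edgeR. DESeq2's Wald test gave an adjusted p of 0.0373, where it called 0.512% of all genes. Its unadjusted p stayed under 0.05 in all 8 fits that left out a library.

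Of class 4, whose members bind class B plexins, Sema4d and Sema4f were lower at the unadjusted threshold. Sema4d had 671, 669, 641 and 706 normalized counts in KO libraries R1 to R4 and 729, 804, 720.0 and 784 in WT libraries R1 to R4, with no overlap. The difference was small, with a log2 fold change of -0.18 (standard error 0.06), with an adjusted p of 0.576 from edgeR. Sema4f had 533, 544, 483 and 579 normalized counts in KO libraries R1 to R4 and 598, 559, 650.0 and 682 in WT libraries R1 to R4, where KO library R4 overlapped with WT library R2. Its log2 fold change was -0.22 (standard error 0.08), with an adjusted p of 0.616 from edgeR. The unadjusted p stayed under 0.05 in 5 of the 8 fits without a library for Sema4d, not without KO library R2 or R3 or WT library R2. For Sema4f it did in 4 of 8, not without KO library R1 or R3 or WT library R3 or R4. The more abundant Sema4g and Sema4c had log2 fold changes of 0.02 and -0.08, with standard errors of 0.07 and 0.09.

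The remaining membrane ligands did not pass the threshold over all libraries. Sema6a had 548, 587, 502 and 583 normalized counts in KO libraries R1 to R4 and 638, 477, 709 and 892 in WT libraries R1 to R4, and its log2 fold change was -0.28 (standard error 0.15). It was -0.42 without WT library R2, where it passed an unadjusted p of 0.05, and -0.12 without WT library R4. Sema6b and Sema6c, both of class 6, had 0.09 and -0.03, with standard errors of 0.065 and 0.06. Sema5a and Sema5b, which carry thrombospondin repeats, had -0.18 and -0.07 with standard errors of 0.14 and 0.13. Sema5a passed an unadjusted p of 0.05 without WT library R4, with a log2 fold change of -0.295. Sema4a and Sema4b had 0.03 and -0.07, with standard errors of 0.10 and 0.11. Sema7a, known for promoting axon growth through integrins, had a log2 fold change of 0.12 (standard error 0.11), from 2345 ± 399.6 normalized counts in WT and 2557 ± 185 in KO libraries (SD, n = 4 each). Summed over 20 ligands, levels were between 4128 and 4375 per kilobase in KO libraries and between 4096 and 4514 in WT libraries, so the genotypes overlapped in full.

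Of the 9 plexins 0 passed an unadjusted p of 0.05 with edgeR and 0 with DESeq2, which with 7.69% of all genes passing is too few genes to read anything from. Plxna4 passed it after a correction for gene length, with a log2 fold change of 0.21, and without WT library R3, with 0.27. Plxna2 passed it without WT library R4, with a log2 fold change of -0.20. The class A plexins, the signalling partners of neuropilins, had log2 fold changes of -0.07 for Plxna1, -0.11 for Plxna2, -0.12 for Plxna3 and 0.17 for Plxna4, with standard errors between 0.07 and 0.11. Plxna4, one of the class A plexins that take part in Sema3a and Sema6a signals, was the only class A plexin above 0, with 5715 ± 943 normalized counts in WT against 6425 ± 515 (SD, n = 4 each). Plxnb1, a receptor of Sema4d, had a log2 fold change of -0.04 and Plxnb2 of -0.0049, each with a standard error of 0.06. Plxnb2 had 6395 ± 469.8 normalized counts in WT against 6375 ± 129.9 (SD, n = 4 each). Plxnb3 was too scarce to compare, with 153 counts in all. Exons of Plxna1, Plxna4 and Plxnb1 overlap annotated genes on the other strand, and the strand setting of the counting is not known, so these 3 values are uncertain to that extent.

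**Figure D4:**
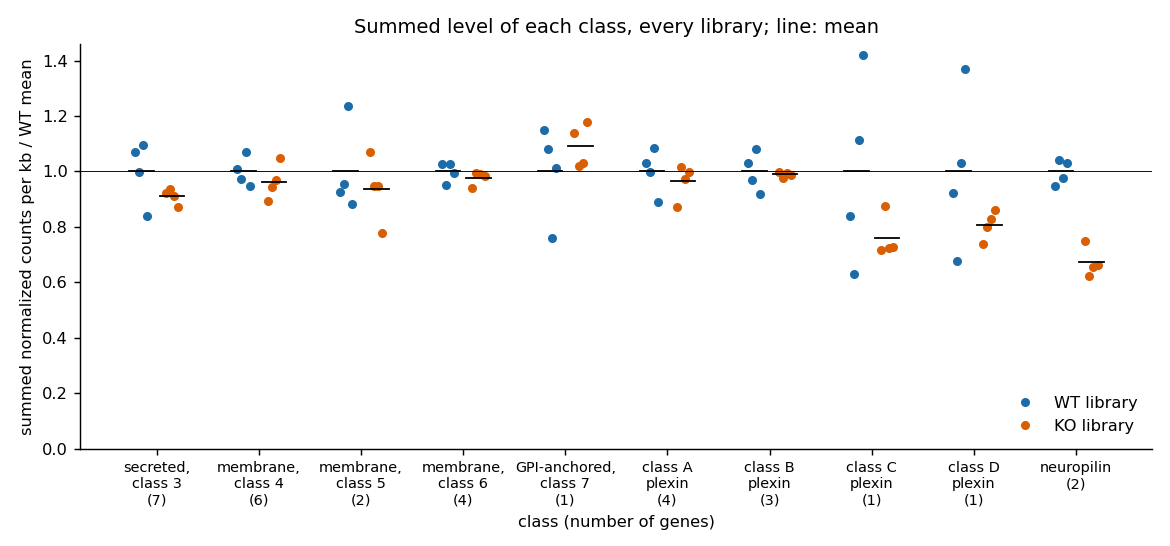
Summed normalized counts per kilobase of each class, divided by the WT mean of that class (vertical axis from 0), with a point for each WT and KO library and a line for the mean. The 2 neuropilins are the class in which every KO library lies below every WT library, and the single class C and class D plexins have the widest WT spread.

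Plxnc1, the receptor of Sema7a, and Plxnd1, the receptor of Sema3e that is expressed in vessels and in corticospinal and callosal neurons, had the lowest fold changes among the plexins. Plxnc1 had 834, 1019, 840.4 and 846 normalized counts in KO libraries R1 to R4 and 974, 733, 1293 and 1652 in WT libraries R1 to R4. Its log2 fold change was -0.39 (standard error 0.20), with an adjusted p of 0.708 from edgeR. Plxnd1 had 1244, 1349, 1397 and 1454 normalized counts in KO libraries R1 to R4 and 1557, 1143, 1739 and 2314 in WT libraries R1 to R4, a log2 fold change of -0.30 (standard error 0.16), with an adjusted p of 0.736 from edgeR. In both, WT library R2 lay below every KO library and WT library R4 far above. Without WT library R2 both passed an unadjusted p of 0.05, with log2 fold changes of -0.56 and -0.45, and without WT library R4 the log2 fold changes were -0.17 and -0.11.

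The spread among WT libraries had the same order in 5 members, namely Nrp2, Plxnc1, Plxnd1, Sema6a and Sema4f. In each, WT library R2 was lowest, followed by R1, R3 and R4. This order was noticed in the data, and 7.9% of all genes tested had it, against 16.1% of the members. WT library R4 exceeded WT library R2 by 4.42-fold in Nrp2, 2.25-fold in Plxnc1, 2.03-fold in Plxnd1, 1.87-fold in Sema6a and 1.22-fold in Sema4f. Among KO libraries the highest exceeded the lowest by 1.34-fold, 1.22-fold, 1.17-fold, 1.17-fold and 1.20-fold in the same genes. The summed markers of interneurons, cells that express Nrp2 while they migrate, had the same order in WT libraries, with 3233 normalized counts in R2, 3720 in R1, 3771 in R3 and 4209 in R4, and were between 3244 and 3530 in KO libraries. Gad1, Sst and Slc32a1 had this order by themselves, whereas others of these markers, such as Lhx6, Gad2 and Npas1, did not. Genes of other marker lists had it as well, such as Slc17a7 of excitatory neurons and Slc1a3 of progenitors. The order was thus not particular to interneuron markers. Of the 11 interneuron markers 10 were lower in KO (90.9%), against 54.4% of all genes tested. Other marker lists were as one-sided. Of the 11 progenitor markers 10 were lower as well, while 0 of 8 microglia and 0 of 7 oligodendrocyte precursor markers were. At an unadjusted p under 0.05, 1 interneuron marker was lower and 1 higher (9.09% each), against 3.18% lower and 4.51% higher over all genes tested. The part of these cells in the member values was not tested, and in bulk tissue fewer cells of a type cannot be told apart from less RNA per cell.

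**Figure D5:**
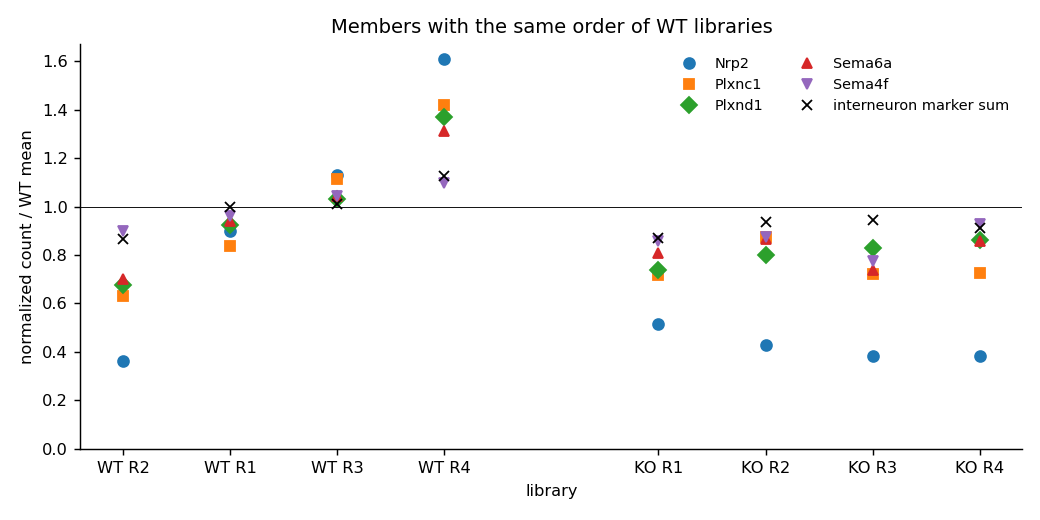
Normalized counts of the 5 members with the same order of WT libraries, and the sum of 11 interneuron markers, each divided by its WT mean (vertical axis from 0). WT libraries are sorted from the lowest to the highest Nrp2, and in the KO libraries the points of Nrp2 lie below those of the other 4 genes.

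Summed over the 11 receptors, levels were between 4716 and 4970 normalized counts per kilobase in KO libraries and between 5217 and 5758 in WT libraries. The sums did not overlap, and their means differed by -9.97%. The neuropilin sum differed by -32.8%, from 1062 ± 47.0 in WT to 714 ± 57.2 in KO (SD, n = 4 for either). The class A and class B plexins differed by -3.55% and -1.04% and overlapped. The single class C and class D plexins differed by -23.9% and -19.4% and overlapped as well. The neuropilins were thus the only class of receptors without overlap. This rests mainly on Nrp1, which made up 90.2% of their sum in WT and 93.8% in KO on average, while Nrp2 by itself overlapped. Nrp1 is also part of the receptor sum, which was not recomputed without it. The median log2 fold change was -0.05 over the ligands and -0.11 over the receptors, beside -0.01 over all genes tested. Without KO library R1 the receptor median was -0.03, and without WT library R3 the ligand median was above 0, at 0.01. 11 of 20 ligands and 9 of 11 receptors were below 0, against 54.4% of all genes tested. Reads on the 31 genes made up between 0.385% and 0.398% of all counts in KO libraries and between 0.403% and 0.448% in WT libraries.

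Markers of projection neuron layers moved with the genotype beside these genes. The summed 9 upper-layer markers were between 17584 and 18613 normalized counts in KO libraries and between 13049.8 and 17166 in WT libraries. The summed 10 deep-layer markers were between 10838 and 11958 in KO libraries and between 12133 and 13530.2 in WT libraries. Neither pair of ranges overlapped. At an unadjusted p under 0.05, 4 of the 9 upper-layer markers were higher, and 4 of the 10 deep-layer markers were lower and 2 higher, against 4.51% higher and 3.18% lower over all genes tested. Single genes without overlap were 4.49% of all genes tested. The part of layer composition in the values of Nrp1, Sema3c or Sema6d was not tested.

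Other genes of the pathway were taken from lists of partners and effectors. Of these, 20 tested genes encode co-receptors, growth factors shared with neuropilins or cleaving proteases, with a median log2 fold change of 0.05. At an unadjusted p under 0.05, 1 of the 20 was lower and 1 higher (5% each), against 3.18% lower and 4.51% higher over all genes tested. The lower one was Dcbld2, a membrane protein built much like a neuropilin, with 481 ± 19.7 normalized counts in WT against 414 ± 13.6 (SD, n = 4 each). Its log2 fold change was -0.21 with a standard error of 0.07 and an adjusted p of 0.526 from edgeR. The higher one was Vegfc, a growth factor of lymphatic and blood vessels, with a log2 fold change of 0.62, a standard error of 0.22 and an adjusted p of 0.56 from edgeR.

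Of 34 tested effectors behind plexins, with a median log2 fold change of -0.01, 1 passed an unadjusted p of 0.05. This is 2.94%, against 7.69% of all genes tested. The gene was Dpysl4, a CRMP phosphoprotein of the family that carries the Sema3a signal to microtubules, with a log2 fold change of -0.22, a standard error of 0.10 and an adjusted p of 0.646 from edgeR. Of 14 GTPases and their regulators, 9 kinases and cofilin pathway genes, 3 MICAL redox enzymes and 3 adaptors, 0 passed with edgeR. The adaptor Ranbp9 did not overlap between genotypes, with 1277 ± 48.1 normalized counts in KO against 1375 ± 60.8 (SD, n = 4 each). This is 1 of 34 effectors without overlap (2.94%), against 4.49% of all genes tested. Its log2 fold change was -0.11, with an unadjusted p of 0.078 from edgeR. With the thresholds of the study, which asked for more than 0.25 on the log2 scale in either direction as well as the unadjusted p, 0 effectors, 1 partner and 5 semaphorin, plexin and neuropilin genes were called, the last being 16.1% against 4.25% of all genes tested (1.8% lower and 2.45% higher).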

How the data were processed

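PolyA RNA of 4 KO and 4 WT cortices was sequenced. The authors used Cutadapt 1.13 and Prinseq for trimming and TopHat2 2.0.13 for mapping to mm9, handled alignments in SAMtools 0.1.19, and deposited raw counts per gene from HTSeq-count. The strand setting and annotation are not given in the sources used here. Libraries were grouped by the genotype in the column names. In R 4.3.3, counts were tested with edgeR 4.0.16 (filterByExpr, TMM, quasi-likelihood test, 2-sided, Benjamini-Hochberg over 12699 genes). The standard error is the size of the log2 fold change divided by the square root of F. The script was first tested on simulated data. Exon lengths and positions come from GENCODE on NCBIM37, which matched 92.5% of rows and all 31 members. Members, marker and partner lists were chosen with earlier results of these data known. Named genes were all members, Nuak1, and partners or effectors with an unadjusted p under 0.05. Ranbp9 was named after its values were seen. Results were recomputed with DESeq2 1.42.0 or its scaling, other filters on low counts, a length correction and each library left out.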

Additional observations from a re-analysis of the deposited data

Results flagged for a closer look

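Dixon's test for a single distant value was applied to the 4 libraries of each genotype. It picked out 9 of 64 such groups, where chance gives about 3.2. In WT, Nrp1 had 6315 normalized counts in library R2 and at most 5479 in the others. Sema3d had 27.7 in WT library R3 and at least 33.8 in the others. Sema5b had 798 in WT library R3, where the next value was 581. WT library R4 was low in Sema5a, with 267 against at least 391, and in Sema6c, with 2844 against at least 3333. In KO, library R2 was high in Sema6d, with 815 against at most 688, and in Plxnc1, with 1019 against at most 846. Sema4a had 656 in KO library R4 and at most 529 in the others, and Sema3g 47.4 in KO library R1 and at most 27.4 in the others.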

How the results depend on the processing

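No paired analysis was possible because no column names the embryo or the litter behind it, and replicate numbers given in order of listing pair nothing. Nrp1 alone passed an adjusted p of 0.05 with edgeR, and DESeq2 called 2 members. With each library left out, between 0 and 1 member passed this threshold (Nrp2 without WT library R2, otherwise Nrp1), between 4 and 9 an unadjusted p under 0.05 (4 without KO library R3), between 4 and 9 the fold and p thresholds (9 without WT library R2), between 2 and 5 ligands and between 2 and 4 receptors. The share of all genes with an unadjusted p under 0.05 moved as well, from 7.69% to 5.16% without KO library R3, 8.12% without WT library R2 and between 5.03% (without WT library R3) and 12.4% (without WT library R4) over these fits. Members higher in KO were 2 after a length correction and between 0 and 2 with a library left out. The difference in Nrp1 share ranged from 1.76 to 5.72 points. Why these values moved was not tested. Members that changed direction had no unadjusted p under 0.05 in those fits. Plxnb2 became 0.0019 with DESeq2, 0.0022 under DESeq2 scaling, 0.0048 unfiltered, 0.0032 among genes of 10 counts or more in each library and 0.0236 after the length correction. With a library left out, ranges were -0.0423 to 0.0357 for Plxnb2, -0.0626 to 0.0167 for Plxnb1, -0.16 to 0.29 for Plxnb3, -0.0011 to 0.21 for Sema3d, -0.0361 to 0.11 for Sema3f, -0.0934 to 0.28 for Sema3g, -0.067 to 0.0808 for Sema4a, -0.14 to 0.0101 for Sema4c, -0.0404 to 0.071 for Sema4g and -0.13 to 0.0754 for Sema5b. Members with few counts are limited by depth.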
